A study of Mus musculus with 16 samples.

Results

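The NRF2 antioxidant genes described here are 10 of the 55487 genes counted in mouse BMDMs, or bone marrow-derived macrophages, a primary cell grown out of marrow in culture. They were chosen by gene symbol: the transcription factor gene Nfe2l2, its partners in regulation Keap1 and Sqstm1, and the target genes Nqo1, Gclc, Gclm, Slc7a11, Txnrd1, Srxn1 and Prdx1. All 10 passed the filter on low counts, which kept 12372 genes. The cells came from wild-type Balb/c mice aged 8 weeks, and RNA of 16 samples was sequenced in 6 groups. BMDMs were held in DMEM, the plain culture medium (2 samples), in DMEM with the JAK1/2 inhibitor ruxolitinib (DMEM + Rux, 3 samples), or in conditioned media of 4T1 cells, a mouse mammary tumor cell line (CM, 3 samples). Further samples received CM with 0.5 μM ruxolitinib and a time of 4 h in the label (CM + Rux 4 h, 3 samples), CM with 0.5 μM ruxolitinib and a time of 2 h in the label (CM + Rux 2 h, 2 samples), or CM with ruxolitinib at the same dose plus 0.8 μM of IKK-16, an inhibitor of the IKK kinases that activate NF-κB (CM + Rux + IKK-16, 3 samples). The labels give no dose for DMEM + Rux and do not say what the 2 h refers to. They number the samples of a group without saying that these came from separate cultures or animals, so p-values measure the spread between these samples, which may be technical.

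NRF2, the protein made from Nfe2l2, switches on genes that make glutathione, recycle thioredoxin and detoxify reactive compounds. In unstressed cells KEAP1 binds NRF2 and directs it to degradation, so that NRF2 activity is set largely at the level of the protein. Oxidants and electrophiles modify KEAP1, and the autophagy receptor p62, made from Sqstm1, can also sequester it, which lets NRF2 enter the nucleus. There NRF2 pairs with a small MAF protein on the antioxidant response element, while the repressor BACH1 competes for the same element. In macrophages this programme is known to accompany inflammatory activation and to limit oxidative damage.

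The core of the antioxidant response element, written TGACNNNGC, was looked for on both strands in the 250 bases before each start site that RefSeq gives for GRCm38.p6. Of the 10 genes 9 had an entry, and 4 of these 9 (44.4%) held the motif, against 11.5% of all 27025 genes with an entry. The sequences around the match are shown because they are the places where NRF2 with a small MAF partner could in principle bind in these genes, with the 9 bases of the motif in capitals and in the direction of the gene. In Nfe2l2 the motif reads forward, and in Gclm, Txnrd1 and Prdx1 it lies on the opposite strand, so that the capitals are its reverse complement.
Nfe2l2 (chr2:75704875-75704913, minus strand): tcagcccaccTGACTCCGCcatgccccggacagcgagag
Gclm (chr3:122245403-122245451, plus strand): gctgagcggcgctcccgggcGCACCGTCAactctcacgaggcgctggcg
Txnrd1 (chr10:82859094-82859142, plus strand): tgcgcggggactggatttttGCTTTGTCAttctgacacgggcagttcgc
Prdx1 (chr4:116685446-116685494, plus strand): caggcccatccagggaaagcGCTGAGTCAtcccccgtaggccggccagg

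None of these 4 windows overlaps an exon. Those of Nfe2l2, Gclm and Prdx1 lie upstream of the gene, and that of Txnrd1 lies within the gene, before an inner start site. The shorter motif TGANTCA, which AP-1 and NRF2-like factors share, was found in 2 of the 9 genes (22.2%), against 7.82% of all genes. Each of the 2 genes held it at 2 places. In Prdx1 the match whose first base is at -131 from the start site overlaps the longer motif shown above, and the match at -237 does not. The places in Srxn1, at -102 and -45, are shown with the motif in capitals, because this gene held no match to the longer motif.
Srxn1, distal (chr2:152105402-152105448, plus strand): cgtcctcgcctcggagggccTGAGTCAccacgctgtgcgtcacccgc
Srxn1, proximal (chr2:152105459-152105505, plus strand): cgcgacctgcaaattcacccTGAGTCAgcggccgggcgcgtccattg

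A match describes letters in a window and not binding, and elements outside the 250 bases were not searched. The other NRF2 targets, a list of 24 further genes used below, held the longer motif in 3 of 19 entries (15.8%) and the shorter in 2 of 19 (10.5%).

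Levels are CPM, the counts of a gene relative to the depth of its library, scaled by relative log expression (RLE), which sets the median gene alike between samples. Total counts ran from 18449388 to 46215853 per sample. A gene was called changed where its log2 fold change was beyond 0.5 and its adjusted p-value under 0.05 in the quasi-likelihood test of edgeR with Benjamini-Hochberg adjustment over all 12372 genes. All 8 macrophage markers were detected in every group, with a summed level of 40148 to 57183 CPM. Most of the sum was Lyz2, at 28541 to 38036 CPM, and single markers moved in both directions. From DMEM to CM, Cd14 went from 1698 to 2528 CPM to 12334 to 15920 CPM, and Csf1r from 3521 to 3599 CPM to 2253 to 2435 CPM. From CM to CM + Rux 4 h, Mertk went from 12.9 to 23.6 CPM to 4.58 to 6.25 CPM, and Fcgr1 from 103 to 232 CPM to 32.6 to 88.8 CPM. The part of these markers in the results was not tested. The comparisons below reuse samples, CM entering 4 of them and CM + Rux 4 h entering 5, so their results are not independent. In bulk RNA, fewer cells that express a gene and less RNA of it per cell cannot be told apart.

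**Figure D1:**
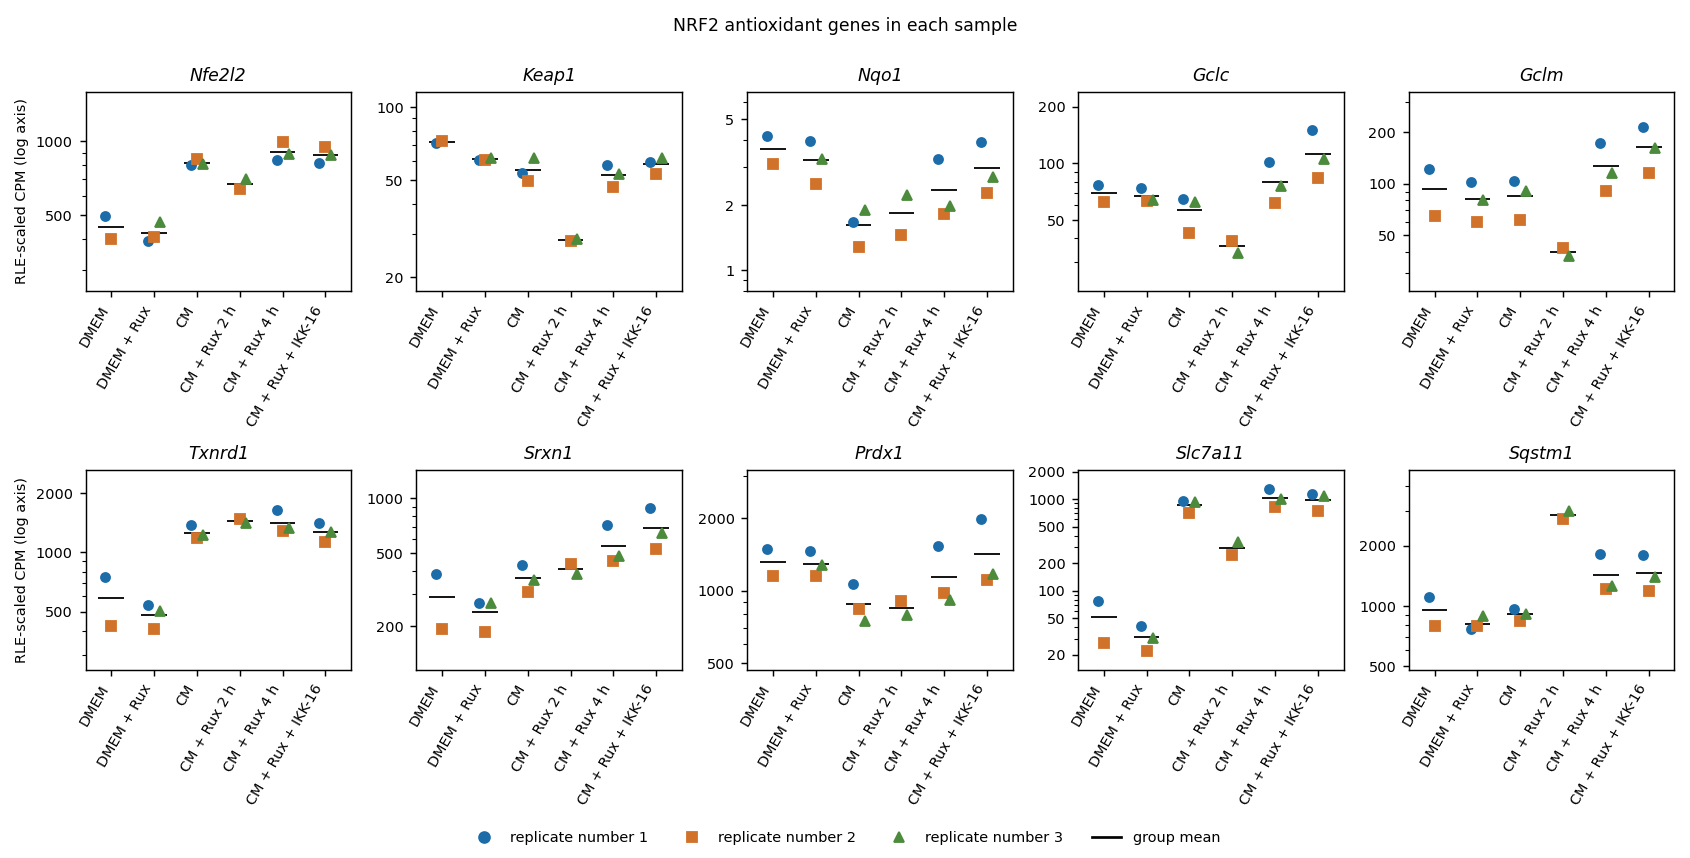
RLE-scaled CPM of the 10 genes (log axis, own range in each panel) in the 6 groups, with 1 symbol per sample, shaped by replicate number, and a line at the group mean. Slc7a11, Txnrd1 and Nfe2l2 are higher in every CM sample than in every DMEM sample, Sqstm1 is highest in the 2 samples of CM + Rux 2 h, and replicate 1 is the highest sample of every group that has one for Gclc, Gclm, Txnrd1, Prdx1 and Slc7a11.

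The levels of the 10 genes in DMEM spanned a wide range per length of exons. This length counts all annotated exons of a gene, 13922 bases for Slc7a11 and 1553 for Nqo1, so the order also depends on annotation. In CPM per kb, the mean level in DMEM was 434 for Prdx1, 285 for Sqstm1, 118 for Nfe2l2, 102 for Srxn1 and 82.7 for Txnrd1. Gclc (18.4 CPM per kb), Keap1 (15.3), Gclm (14.9), Slc7a11 (3.72) and Nqo1 (2.35) were lower. Neighbours in this order overlapped between samples for Nfe2l2, Srxn1 and Txnrd1 for Gclm with both Gclc and Keap1, and for Slc7a11 with Nqo1, and not for Prdx1 and Sqstm1. In DMEM replicate 2 Nqo1 (2 CPM per kb) was above Slc7a11 (1.94). In CM the order changed for Slc7a11, which reached 62.2 CPM per kb and stood above Gclc (15), Gclm (13.6) and Keap1 (11.7). Nqo1, the quinone reductase that is the usual marker of NRF2 activity, had the lowest mean of the 10 in all 6 groups, with 30 to 152 counts per sample. In DMEM + Rux its mean of 2.1 CPM per kb was within the spread of Slc7a11, at 2.24 ± 0.687 (SD, n = 3).

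CM against DMEM asks which genes answer to tumor-conditioned media. The paper grew 4T1 cells in RPMI with added glutamine, HEPES and pyruvate, and starved them of serum before collecting CM. It does not name the medium of that step. Base medium and nutrient use therefore cannot be told apart from factors secreted by the tumor cells. Slc7a11, Txnrd1 and Nfe2l2 rose and Nqo1 fell, while neither subunit of the enzyme that makes the glutathione precursor was called. Of the 10 genes 4 were called, against 45% of all genes, 3 of them higher and 1 lower, against 20.9% and 24.1%. The samples of both groups did not overlap in 3 genes with higher and 3 with lower values, against 37.8% and 37% of all genes. The median log2 fold change of the 10 was -0.11, against -0.00 over all genes tested. The share called is near that of all genes.

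Nfe2l2 (chr2:75675513-75704641, GRCm38, minus strand) was at 497 and 399 CPM in DMEM and at 799, 845 and 809 CPM in CM. All CM samples were above both DMEM samples, and the log2 fold change was 0.87 (SE 0.12, adjusted p = 1.9e-05). Keap1 (chr9:21229730-21239361), which encodes the adaptor that delivers NRF2 to a ubiquitin ligase, was at 71.3 and 72.3 CPM in DMEM and at 53.7, 49.7 and 61.7 CPM in CM. Its groups did not overlap, and its log2 fold change of -0.38 (SE 0.10, adjusted p = 0.0041) was smaller than the threshold of 0.5. With scaling by total counts alone it was -0.69 (adjusted p = 2.3e-04) and would be called lower. Relative to total counts, the RLE factors shifted the median gene by 0.312 in this comparison. Sqstm1 (chr11:50199366-50210827) was at 1115 and 798 CPM in DMEM and at 971, 842 and 914 CPM in CM. The CM samples lay between the DMEM samples (log2 fold change -0.07, SE 0.20, adjusted p = 0.76).

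Slc7a11 (chr3:49892526-50443614, minus strand) encodes the cystine-importing subunit of system xc-, which supplies cysteine for glutathione. It was at 76.5 and 27.0 CPM in DMEM and at 962, 712 and 924 CPM in CM. The groups were far apart, with a log2 fold change of 4.06 (SE 0.43, adjusted p = 2.5e-06), that is 16.7-fold. The size depended on the DMEM sample used, with a log2 fold change of 5.0 without DMEM replicate 1 and 3.50 without DMEM replicate 2. Gclc (chr9:77754535-77794485) and Gclm (chr3:122245557-122270732) encode the catalytic and the modifier subunit of glutamate-cysteine ligase, the rate-limiting enzyme of glutathione synthesis. Gclc was at 76.7 and 62.2 CPM in DMEM and at 65.1, 42.8 and 62.2 CPM in CM. Gclm was at 122 and 64.5 CPM in DMEM and at 104, 61.6 and 90.7 CPM in CM. The groups overlapped for both genes, with log2 fold changes of -0.30 (SE 0.25, adjusted p = 0.31) for Gclc and -0.14 (SE 0.34, adjusted p = 0.74) for Gclm.

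Txnrd1 (chr10:82833951-82897712), the cytosolic thioredoxin reductase, was at 747 and 425 CPM in DMEM and at 1373, 1183 and 1226 CPM in CM. The groups did not overlap, and the log2 fold change was 1.10 (SE 0.20, adjusted p = 3.1e-04). Srxn1 (chr2:152105516-152111376), the sulfiredoxin that repairs over-oxidized peroxiredoxins, was at 385 and 193 CPM in DMEM and at 434, 307 and 358 CPM in CM. Its log2 fold change was 0.34 (SE 0.29, adjusted p = 0.33), and DMEM replicate 1 alone reached into the range of CM. Without that sample the log2 fold change of Srxn1 was 0.92 (adjusted p = 0.03), and without DMEM replicate 2 it was -0.07. Prdx1 (chr4:116685544-116700822), an abundant peroxiredoxin that removes hydrogen peroxide, was at 1492 and 1152 CPM in DMEM and at 1064, 837 and 751 CPM in CM. Every CM sample was below both DMEM samples, but the log2 fold change of -0.58 (SE 0.26, adjusted p = 0.067) missed the threshold. It was past both thresholds with DESeq2 (adjusted p = 0.043), with no filter on low counts, with total counts alone, with the groups compared alone and without CM replicate 1.

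Nqo1 (chr8:107388225-107403206) was at 4.20 and 3.11 CPM in DMEM and at 1.67, 1.28 and 1.91 CPM in CM, or 142 and 76 counts against 30, 43 and 47 counts. All CM samples were lower, with a log2 fold change of -1.19 (SE 0.32, adjusted p = 0.0054). Without DMEM replicate 1 it was -0.96 (adjusted p = 0.065) and the call was lost. Hmox1, the haem oxygenase gene under joint control of NRF2 and BACH1, was at 430 and 423 CPM in DMEM and at 317, 291 and 356 CPM in CM. Its log2 fold change of -0.41 (SE 0.11, adjusted p = 0.005) was short of the fold threshold, and with total counts alone it was -0.71 and past it.

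Of 10 NRF2 partners and regulators 2 were called higher and 1 lower. Maff, a small MAF partner, rose from a mean of 2.56 to 57.7 CPM (log2 fold change 4.46, adjusted p = 1.5e-07), Nfe2l1, the NRF2 relative, rose by 0.82 (adjusted p = 1.7e-06), and the repressor gene Bach1 had a log2 fold change of -0.72 (adjusted p = 0.0042). Of 22 other NRF2 targets tested 5 were called higher and 6 lower, and the median of the list was -0.30 on the log2 scale. Ugdh, which makes UDP-glucuronate, changed by 1.73 and the exporter gene Abcc1 by 1.19, while the carbonyl reductase gene Cbr3 changed by -1.30 and the malic enzyme gene Me1 by -0.92. Of 15 other antioxidant enzymes tested 4 were called higher and 3 lower, led by mitochondrial Sod2 (log2 fold change 2.87, from 171 to 1251 CPM) and the glutaredoxin gene Glrx (2.33). Catalase (Cat) changed by -1.15 and the mitochondrial thioredoxin reductase gene Txnrd2 by -0.53. Of all genes 20.9% were called higher and 24.1% lower, and the shares called in the targets and enzymes are near these.

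Transcripts of other cell types were low in both groups, and several lists moved with CM. The 6 epithelial markers summed to 0 to 0.118 CPM in DMEM, where 4 of 6 were at 0 in both samples, and to 0.774 to 1.45 CPM in CM, where 1 of 6 was at 0 in all samples. The 6 dendritic cell markers summed to 1.96 to 2.93 CPM in DMEM and 5.73 to 8.02 CPM in CM, the T and NK cell markers to 1.02 to 1.45 and 3.03 to 3.87 CPM, and the B cell markers to 1.24 to 1.31 and 0.223 to 0.285 CPM. Neutrophil markers stayed at or under 0.763 CPM in all groups, and fibroblast markers lay between 5.83 and 20.9 CPM. Lck made up most of the T and NK sum, at 0.778 to 1.3 CPM in DMEM and 3 to 3.75 CPM in CM. Cd3g, Cd8a and Ncr1 were at 0 in all groups. Of the epithelial markers Cdh1 moved most, at 0 to 0.0296 CPM in DMEM and 0.407 to 0.891 CPM in CM. Cd79b made up most of the B cell sum in DMEM, at 1.06 to 1.21 CPM, and was at 0.0815 to 0.178 CPM in CM. Of the dendritic cell markers Ccr7 moved most, at 0.205 to 0.443 CPM in DMEM and 2.28 to 5.47 CPM in CM. The part of these markers in the results was not tested.

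**Figure D2:**
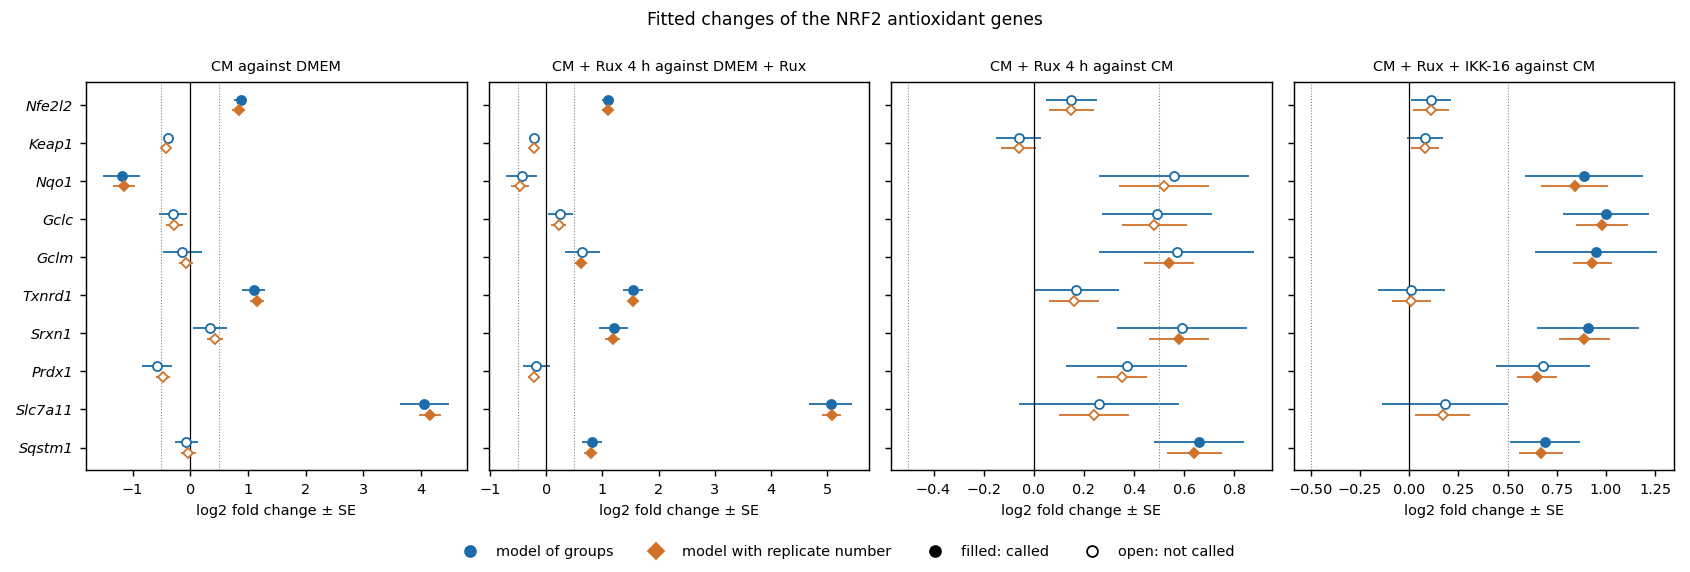
Log2 fold change ± SE of the 10 genes in 4 comparisons, each panel with its own scale, in the model of the groups (circles) and in the model that also has the replicate number (diamonds), filled where called, with dotted lines at the fold threshold. Slc7a11 stands far to the right in both comparisons with DMEM (4.06 and 5.06), and in CM + Rux + IKK-16 against CM the genes Gclc, Gclm, Srxn1, Nqo1 and Sqstm1 are filled in both models.

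CM + Rux 4 h against CM asks what JAK inhibition changes in cells exposed to CM. Sqstm1 was the member called higher, and the levels of Gclm, Srxn1, Nqo1 and Gclc were also above CM in the mean without passing the test. It was the 1 call among the 10, against 3.33% of all genes in either direction, 1.2% higher and 2.13% lower. The samples did not overlap in 2 genes with higher and 0 with lower values, against 9.66% and 9.57% of all genes. The median log2 fold change was 0.43, against 0.01 over all genes tested. At an unadjusted p under 0.05 there were 3, all with a positive change. The share of all genes at that cutoff was not computed, here or below, so such counts have no background to be read against. CM + Rux 4 h and CM samples with the same number deviated together from their group means (r = 0.43 to 0.62 across genes), so the model with the replicate number is given beside these results. In it 3 of the 10 were called higher, against 2.47% of all genes.

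Sqstm1 was at 971, 842 and 914 CPM in CM and at 1828, 1219 and 1267 CPM in CM + Rux 4 h. Every treated sample was above every CM sample, and the log2 fold change was 0.66 (SE 0.18, adjusted p = 0.048). The call was lost in 9 of 14 alternatives, among them each CM sample left out and CM + Rux 4 h replicate 1 or replicate 3 left out, and the adjusted p ranged from 5.0e-04 to 0.23. Its log2 fold change was 0.45 when CM + Rux 4 h replicate 1 was left out. In the model with the replicate number it was 0.64 (SE 0.11, adjusted p = 0.0019).

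Gclm was at 173, 91.0 and 115 CPM in CM + Rux 4 h and Srxn1 at 716, 455 and 483 CPM, in the order of replicates 1, 2 and 3. The samples of Gclm overlapped those of CM, and those of Srxn1 did not. The log2 fold changes were 0.57 (SE 0.31, adjusted p = 0.43) for Gclm and 0.59 (SE 0.26, adjusted p = 0.29) for Srxn1. Both were called higher in the model with the replicate number, Gclm by 0.54 (SE 0.10, adjusted p = 0.0035) and Srxn1 by 0.58 (SE 0.12, adjusted p = 0.0078). Gclc, at 102, 61.5 and 75.6 CPM, had a log2 fold change of 0.49 (adjusted p = 0.30), and 0.48 (adjusted p = 0.025) with the replicate number, short of the fold threshold.

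None of the other genes was called in either model. The log2 fold changes were 0.56 (SE 0.30, adjusted p = 0.42) for Nqo1, 0.37 (SE 0.24, adjusted p = 0.53) for Prdx1 and 0.26 (SE 0.32, adjusted p = 0.82) for Slc7a11. Those of Txnrd1 (0.17, adjusted p = 0.78), Nfe2l2 (0.15, adjusted p = 0.56) and Keap1 (-0.06, adjusted p = 0.87) were smaller still. Taken between samples of the same number, the ratio to CM was above 1 in 3 of 3 pairs for every gene but Keap1, for which it was above 1 in 1 of 3. The smallest log2 ratios were 0.05 for Nqo1, 0.07 for Nfe2l2 and 0.11 for Txnrd1 and Slc7a11. The share of all genes with such pairs was not computed, so this count has no background to be read against. Hmox1, at 317, 291 and 356 CPM in CM, was at 478, 378 and 440 CPM in CM + Rux 4 h, with no overlap (log2 fold change 0.43, SE 0.10, adjusted p = 0.023, short of the fold threshold). None of the 10 partners and regulators, the 22 other NRF2 targets or the 15 other antioxidant enzymes was called by edgeR in the model of the groups. At an unadjusted p under 0.05 there were 2, 3 and 2, and DESeq2 called 0, 1 and 1. The model with the replicate number also called 0, 1 and 1. The summed T and NK cell markers were at 3.03 to 3.87 CPM in CM and 1.86 to 3 CPM in CM + Rux 4 h. The B cell markers were at 0.223 to 0.285 and 0.356 to 0.647 CPM. Most of the T and NK sum was Lck, at 3 to 3.75 and 1.65 to 2.7 CPM. Among the B cell markers Cd79b was at 0.0815 to 0.178 and 0.254 to 0.566 CPM. The part of these markers in the results was not tested.

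**Figure D3:**
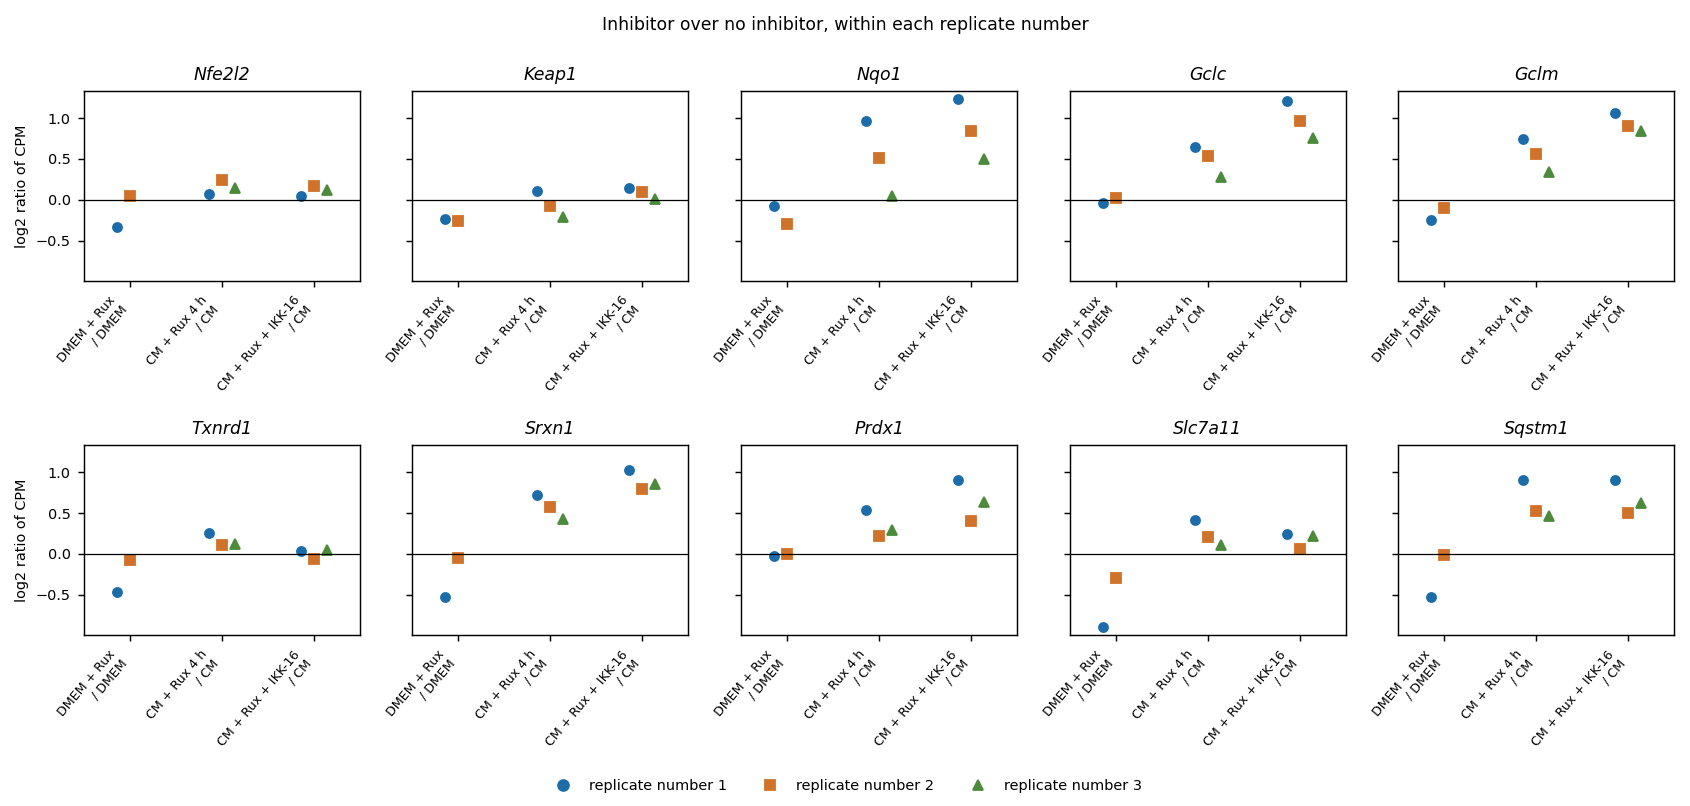
Log2 ratio of RLE-scaled CPM between samples of the same replicate number (1 symbol per pair) for DMEM + Rux over DMEM, CM + Rux 4 h over CM and CM + Rux + IKK-16 over CM. For every gene but Keap1 and Txnrd1 all pairs in CM lie above 0, up to 1.23 for Nqo1. No pair of DMEM + Rux over DMEM exceeds 0.04 for any of the 10 genes.

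CM + Rux + IKK-16 against CM asks what JAK and IKK inhibition change together. Gclc, Gclm, Srxn1, Nqo1 and Sqstm1 rose, each to between 1.61-fold and 2-fold, while the samples of Slc7a11, Txnrd1, Nfe2l2 and Keap1 overlapped those of CM. The 5 calls among the 10 genes, against 12.7% of all genes, were 5 higher and 0 lower, against 6.6% and 6.13%, with a median log2 fold change of 0.69 against 0.00. The groups did not overlap, with higher values, in 6 of the 10 and with lower values in 0, against 18.2% and 19.7% of all genes. Prdx1 was called as well in the model with the replicate number, which made 6, against 8.25% of all genes. The RLE factors shifted the median gene by -0.11 relative to total counts here.

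Gclc was at 65.1, 42.8 and 62.2 CPM in CM and at 150, 83.3 and 105 CPM in CM + Rux + IKK-16. The groups did not overlap, and the log2 fold change was 1.0 (SE 0.22, adjusted p = 0.0057). The call held in all 14 alternatives, with adjusted p-values up to 0.032. Gclm was at 104, 61.6 and 90.7 CPM in CM and at 216, 115 and 162 CPM with both inhibitors. Its log2 fold change was 0.95 (SE 0.31, adjusted p = 0.038), and the call was lost in 4 of 14 alternatives, in which CM replicate 2, CM replicate 3, or the replicate 1 or 3 of CM + Rux + IKK-16 was left out (up to adjusted p = 0.17).

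Srxn1 was at 434, 307 and 358 CPM in CM and at 887, 531 and 645 CPM with both inhibitors, with a log2 fold change of 0.91 (SE 0.26, adjusted p = 0.023). Prdx1 was at 1064, 837 and 751 CPM in CM and at 1985, 1104 and 1171 CPM, with no overlap and a log2 fold change of 0.68 (SE 0.24, adjusted p = 0.051). It was 0.65 (SE 0.10, adjusted p = 3.3e-04) with the replicate number. Srxn1 uses the peroxiredoxins as its substrate, and the highest sample of both genes was replicate 1. Nqo1 was at 1.67, 1.28 and 1.91 CPM in CM and at 3.92, 2.29 and 2.71 CPM, with a log2 fold change of 0.89 (SE 0.30, adjusted p = 0.044). Sqstm1 was at 1807, 1190 and 1405 CPM with both inhibitors, above all CM samples, with a log2 fold change of 0.69 (SE 0.18, adjusted p = 0.012).

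In the model of the groups these calls depended in part on single samples. With the replicate number and all samples, Gclc, Gclm, Srxn1, Nqo1 and Sqstm1 stayed called. Their adjusted p-values were then from 1.9e-05 for Gclm to 0.0018 for Nqo1. The fits with a sample left out did not include that number. The number of the 10 genes called fell to 1 when CM replicate 2 or CM + Rux + IKK-16 replicate 1 was left out. It fell to 2 when CM replicate 3 was, and to 3 when CM + Rux + IKK-16 replicate 3 was. Over all genes, 817 were called higher with all samples, and 648, 603, 753 and 660 in these fits, in the order given. Without CM + Rux + IKK-16 replicate 1 the log2 fold changes were 0.74 for Gclc, 0.70 for Gclm, 0.68 for Srxn1, 0.64 for Nqo1, 0.51 for Sqstm1 and 0.36 for Prdx1. All 6 were above 0, and of these only Gclc passed the test (adjusted p = 0.032). Over the 14 alternatives Nqo1 lost its call in 6, Srxn1 in 3 and Sqstm1 in 2.

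Slc7a11, Txnrd1 and Nfe2l2, the genes called higher in CM against DMEM, were not called here. The log2 fold changes against CM were 0.18 (SE 0.32, adjusted p = 0.72) for Slc7a11, 0.01 (SE 0.17, adjusted p = 0.97) for Txnrd1, 0.11 (SE 0.10, adjusted p = 0.47) for Nfe2l2 and 0.08 (SE 0.09, adjusted p = 0.56) for Keap1. Hmox1 rose from 317, 291 and 356 CPM in CM to 564, 473 and 559 CPM, by 0.73 (SE 0.10, adjusted p = 1.8e-04). Calls among the 22 other NRF2 targets were 4 higher and 1 lower, and their median was 0.31. Cbr3 (0.94, adjusted p = 0.021) and Cbr1 (0.75, adjusted p = 4.8e-04) were the largest increases, and Ugdh (-0.65, adjusted p = 0.017) was the decrease. Of the 15 other antioxidant enzymes 2 were called higher, Cat (0.74) and Prdx6 (0.66), and Sod2 was called lower (-0.54). None of the 10 partners and regulators was called, with 3 at an unadjusted p under 0.05 and 0 called by DESeq2. Summed markers of other cell types also moved without overlap between these groups. From CM to CM + Rux + IKK-16 the epithelial markers went from 0.774 to 1.45 CPM to 0.184 to 0.722 CPM, with 1 and 3 of 6 at 0 in all samples, and the T and NK cell markers from 3.03 to 3.87 CPM to 1.71 to 2.88 CPM. The dendritic cell markers were at 5.73 to 8.02 CPM in CM and 3.79 to 5.48 CPM with both inhibitors. The B cell markers were at 0.223 to 0.285 and 0.398 to 0.825 CPM. Lck, most of the T and NK sum, was at 3 to 3.75 and 1.5 to 2.53 CPM. Ccr7, the largest dendritic marker, overlapped at 2.28 to 5.47 and 1.81 to 3.7 CPM, and Batf3 was at 1.19 to 1.75 and 0.232 to 0.428 CPM. Cd79b was at 0.0815 to 0.178 and 0.214 to 0.644 CPM. Of the epithelial markers Cdh1 was at 0.407 to 0.891 and 0.0291 to 0.258 CPM, and Epcam at 0.0297 to 0.0556 and 0 CPM. Those of Krt8 and Krt18 overlapped. The part of these markers in the results was not tested.

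CM + Rux + IKK-16 against CM + Rux 4 h asks what IKK inhibition adds. Among the 10 genes 0 were called by edgeR, against 7.74% of all genes, 4.07% higher and 3.66% lower, with 1 at an unadjusted p under 0.05 and 0 called by DESeq2. The samples overlapped in all 10, where 14.5% of all genes did not overlap with higher values and 17.1% with lower. Gclc came nearest, with a log2 fold change of 0.51 (SE 0.22, adjusted p = 0.14). Its value with the replicate number was 0.50 (SE 0.12, adjusted p = 0.0092), and those of Gclm (0.39, adjusted p = 0.014) and Prdx1 (0.30, adjusted p = 0.045) were also short of the fold threshold. Between samples of the same number, Gclc, Gclm, Srxn1, Prdx1, Nqo1 and Keap1 were higher with IKK-16 in 3 of 3 pairs. Nfe2l2 and Txnrd1 were lower in 3 of 3. The share of all genes with such pairs was not computed. The remaining log2 fold changes were 0.33 for Nqo1, 0.32 for Srxn1, 0.14 for Keap1, 0.03 for Sqstm1, -0.04 for Nfe2l2, -0.08 for Slc7a11 and -0.16 for Txnrd1. In the other lists Mafk, a small MAF partner, was called higher (0.65, adjusted p = 6.6e-04), as were the targets Osgin1 (0.68) and Cbr1 (0.56), and Prdx5 was called lower (-0.52). Hmox1 differed by 0.30 on the log2 scale (adjusted p = 0.056). The summed dendritic cell markers were at 7.74 to 11.7 CPM in CM + Rux 4 h and at 3.79 to 5.48 CPM with IKK-16. Ccr7 was the largest of them, at 5.04 to 8.82 and 1.81 to 3.7 CPM. The part of these markers was not tested.

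DMEM + Rux against DMEM gives the background of ruxolitinib without CM. For the 10 genes edgeR and DESeq2 made 0 calls, against 0.97% of all genes in either direction, and 1 was at an unadjusted p under 0.05. The samples did not overlap in 0 genes with higher values and in 1, Keap1, with lower values, against 9.66% and 8.84% of all genes. All 10 log2 fold changes were below 0, from -0.03 for Prdx1 to -0.74 (SE 0.36, adjusted p = 1) for Slc7a11. Slc7a11 was at 76.5 and 27.0 CPM in DMEM and at 41.2, 22.1 and 30.3 CPM in DMEM + Rux. Without DMEM replicate 1 the sign turned for 9 of the 10 genes, all but Keap1. That fit keeps replicate 1 of DMEM + Rux and sets it against DMEM replicate 2 alone. Between the samples numbered 2, the log2 ratio was -0.30 for Nqo1, -0.29 for Slc7a11 and -0.26 for Keap1. It was from -0.10 to 0.04 for the other genes. Hmox1 was at 395, 397 and 417 CPM in DMEM + Rux (log2 fold change -0.08, adjusted p = 1).

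CM + Rux 4 h against DMEM + Rux repeats the question of CM with ruxolitinib in both groups, and shares no sample with CM against DMEM. The 2 comparisons are still not independent, since same-numbered samples deviated together across groups and 1 model gave the spread for both. Calls were made for 5 of the 10, against 47.3% of all genes, 5 higher and 0 lower, against 22.3% and 25%, with a median log2 fold change of 0.73. The samples did not overlap in 5 genes with higher and 1 with lower values, against 35.2% and 34.8% of all genes. Slc7a11 rose from 41.2, 22.1 and 30.3 CPM to 1290, 826 and 996 CPM, with a fitted change of 5.06 on the log2 scale (SE 0.38, adjusted p = 5.8e-08), that is 33.4-fold. Txnrd1 rose from 539, 406 and 505 CPM to 1637, 1279 and 1330 CPM (1.55, SE 0.18, adjusted p = 3.6e-06). Nfe2l2 rose from 394, 409 and 469 CPM to 841, 995 and 889 CPM (1.10, SE 0.10, adjusted p = 4.5e-07). These are the 3 genes called higher in CM against DMEM.

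Srxn1 and Sqstm1 were called here in addition. Srxn1 rose from 267, 186 and 267 CPM in DMEM + Rux to 716, 455 and 483 CPM (1.2, SE 0.26, adjusted p = 0.0011), and Sqstm1 from 770, 791 and 891 CPM to 1828, 1219 and 1267 CPM (0.81, SE 0.18, adjusted p = 9.9e-04). The groups did not overlap for either gene. Gclm had a log2 fold change of 0.64 (SE 0.31, adjusted p = 0.079), and with the replicate number it was called higher (0.62, SE 0.10, adjusted p = 1.1e-04). Nqo1 (-0.44, adjusted p = 0.18), Keap1 (-0.21, adjusted p = 0.052), Prdx1 (-0.18, adjusted p = 0.52) and Gclc (0.25, adjusted p = 0.34) were not called. With total counts alone, Keap1 (-0.51) and Nqo1 (-0.73) were called lower, the RLE factors having shifted the median gene by 0.301. Hmox1 differed by 0.10 on the log2 scale (adjusted p = 0.38).

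In the other lists Maff (4.05) and Nfe2l1 (1.11) were again the largest increases among partners and regulators, of which 3 were called higher and 1, Bach1 (-0.98), lower. Of the other NRF2 targets 5 were called higher and 5 lower, with Abcc1 (1.75) and Ugdh (1.37) at one end and Gstp1 (-0.98) and Cbr1 (-0.97) at the other. Of the other antioxidant enzymes 5 were called higher and 2 lower, with Sod2 (3.47), Glrx (2.34), Txnrd2 (-0.59) and Cat (-0.57) at the ends. The summed dendritic cell markers were at 1.74 to 3.66 CPM in DMEM + Rux and 7.74 to 11.7 CPM in CM + Rux 4 h. The T and NK cell markers were at 0.907 to 1.57 and 1.86 to 3 CPM, and the B cell markers at 1.23 to 1.36 and 0.356 to 0.647 CPM. Single genes moved most in each list. Ccr7 was at 0.201 to 0.518 and 5.04 to 8.82 CPM, Lck at 0.68 to 1.39 and 1.65 to 2.7 CPM. Cd79b was at 0.939 to 1.18 and 0.254 to 0.566 CPM. The part of these markers in the results was not tested.

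Whether ruxolitinib acted unequally with and without tumor factors was tested as an interaction, its change in CM minus its change in DMEM. None of the 10 genes (0) was called by edgeR, against 0.412% of all genes, 2 were at an unadjusted p under 0.05, and DESeq2 called 1, Sqstm1 (adjusted p = 0.044). All 10 differences were positive, from 0.17 for Keap1 to 1.0 (SE 0.48, adjusted p = 0.58) for Slc7a11, with Sqstm1 at 0.89 (SE 0.26, adjusted p = 0.18). The model with the replicate number called 4 higher, against 2% of all genes, namely Slc7a11 (0.92, SE 0.22, adjusted p = 0.031), Sqstm1 (0.83, SE 0.17, adjusted p = 0.015), Srxn1 (0.75, SE 0.19, adjusted p = 0.043) and Gclm (0.69, SE 0.16, adjusted p = 0.025). Hmox1 was called in that model as well (0.54, SE 0.11, adjusted p = 0.01). DMEM has 2 samples. In the model of the groups, leaving out DMEM replicate 1 gave a difference as low as 0.06 for Slc7a11 and -0.02 for Txnrd1. That fit keeps replicate 1 in the other groups and has no term for the replicate number. With all samples and that term, the difference for Txnrd1 was 0.39. None of the genes of the other 3 lists was called by DESeq2 or by edgeR in the model of the groups, with 1, 2 and 1 at an unadjusted p under 0.05. The model with the replicate number called 0 partners and regulators, 2 other NRF2 targets, with Hmox1 among them, and 1 other antioxidant enzyme.

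CM + Rux 2 h against CM + Rux 4 h sets the samples apart by the time in their label. Sqstm1 was higher in the 2 h samples, and Slc7a11, Gclm, Gclc and Keap1 were lower. These 5 of 10, against 23.3% of all genes, were 1 called higher and 4 lower, against 12.6% and 10.7%, with a median log2 fold change of -0.44 against -0.03. The samples did not overlap in 1 gene with higher and 7 with lower values, against 28.5% and 31.2% of all genes. The 2 h group has no replicate 1, which is the highest sample in at least 4 of the 5 other groups for 8 of the 10 genes, Nfe2l2 and Keap1 excepted, so the called changes are also given without replicate 1 of CM + Rux 4 h.

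Sqstm1 was at 2725 and 2989 CPM at 2 h and at 1828, 1219 and 1267 CPM at 4 h. These 2 samples were the highest of all 16, and the log2 fold change was 0.99 (SE 0.19, adjusted p = 0.0013), or 1.2 without replicate 1 at 4 h. Slc7a11 was at 248 and 340 CPM at 2 h and at 1290, 826 and 996 CPM at 4 h, and changed by -1.82 (SE 0.38, adjusted p = 0.002), or -1.63 without replicate 1. Its level at 2 h was between those of DMEM (27.0 to 76.5 CPM) and CM (712 to 962 CPM). Gclm was at 41.9 and 37.8 CPM at 2 h, the lowest of all 16 samples, with a log2 fold change of -1.66 (SE 0.36, adjusted p = 0.0028), or -1.36 without replicate 1. Gclc was at 39.0 and 33.7 CPM, also the lowest of all samples, with -1.13 (SE 0.26, adjusted p = 0.0036), or -0.91 without replicate 1. Keap1 was at 28.1 and 28.8 CPM at 2 h and at 58.0, 46.9 and 53.3 CPM at 4 h, and no sample of another group was under 46.9 CPM. Its log2 fold change was -0.89 (SE 0.10, adjusted p = 2.8e-05), or -0.81 without replicate 1.

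Nfe2l2 was at 638 and 703 CPM at 2 h, under all samples of 4 h, with a log2 fold change of -0.44 (SE 0.11, adjusted p = 0.0077) that was short of the fold threshold. Txnrd1 was at 1478 and 1416 CPM at 2 h, within the range at 4 h (log2 fold change 0.03, SE 0.19, adjusted p = 0.91). Srxn1 (-0.42, adjusted p = 0.28), Prdx1 (-0.43, adjusted p = 0.22) and Nqo1 (-0.41, adjusted p = 0.37) did not pass the test. Hmox1 was at 140 and 150 CPM at 2 h and at 478, 378 and 440 CPM at 4 h (-1.57, SE 0.12, adjusted p = 5.8e-07).

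Among partners and regulators 1 was called higher, Bach1 (0.68), and 3 lower, with Sesn2 (-1.72) and Btrc (-1.31) the largest. Of the other NRF2 targets 0 were called higher and 4 lower, led by Osgin1 (-1.76) and Hmox1. Of the other antioxidant enzymes Gpx1 was called higher (0.55) and Prdx5 lower (-0.71). The summed dendritic cell markers were at 15.0 to 18.8 CPM at 2 h and at 7.74 to 11.7 CPM at 4 h. Zbtb46 carried this, at 7.95 to 12.3 and 1.79 to 2.09 CPM, while Ccr7 was at 4.5 to 5.05 and 5.04 to 8.82 CPM. The neutrophil markers were at 0.0276 to 0.117 and 0.242 to 0.763 CPM, of which Camp was at 0.0276 to 0.117 and 0.194 to 0.712 CPM. The part of these markers in the results was not tested.

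**Figure D4:**
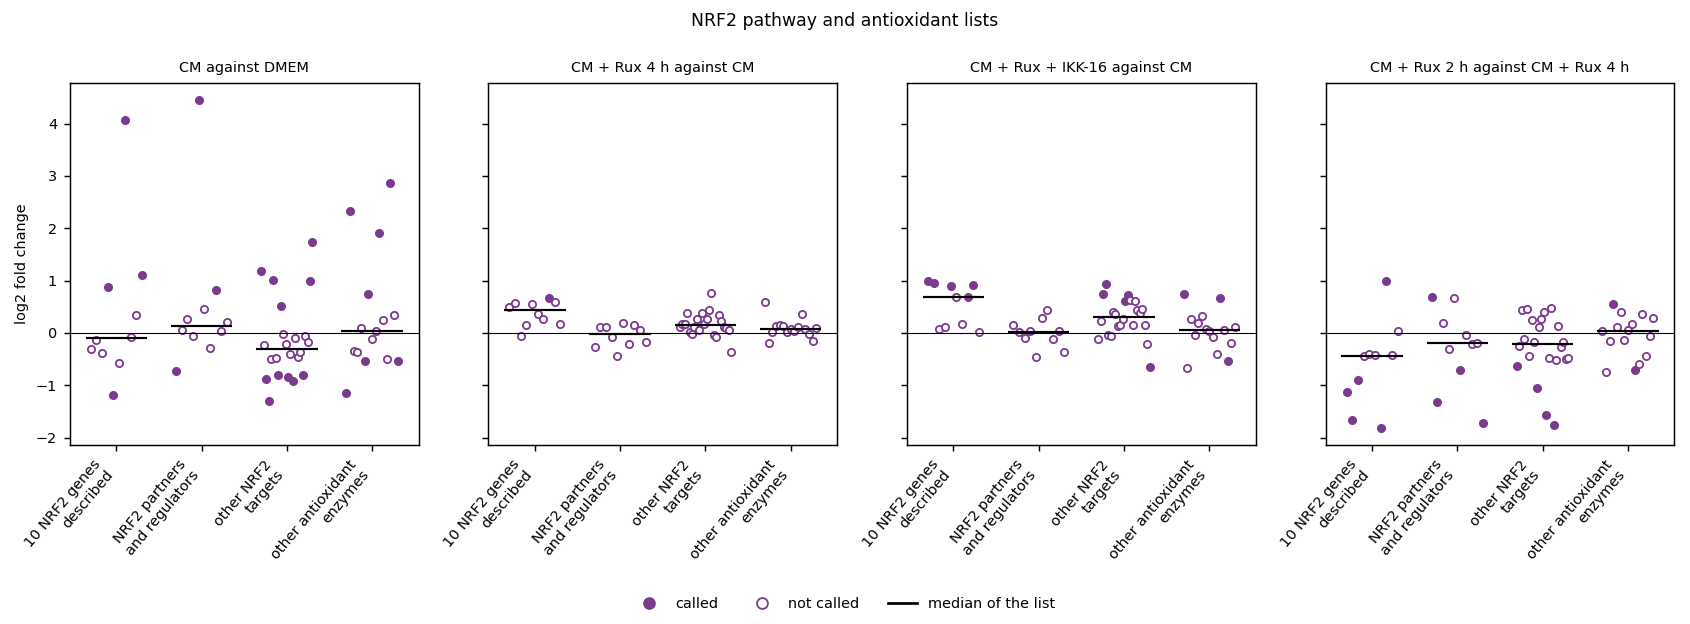
Log2 fold changes of the 10 genes described, of 10 NRF2 partners and regulators, of 22 other NRF2 targets and of 15 other antioxidant enzymes (1 point per gene, filled where called, line at the median) in 4 comparisons. In CM + Rux + IKK-16 against CM the median of the 10 genes is 0.69 and that of the other NRF2 targets 0.31, and in CM against DMEM the lists spread to both sides of 0.

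Replicates of the same number resembled each other in these genes. Replicate 1 was the highest sample in all 5 groups that have one for Gclc, Gclm, Txnrd1, Prdx1 and Slc7a11, a pattern that 4.88% of all genes tested shared, and in 4 of 5 groups for Nqo1, Srxn1 and Sqstm1. Nfe2l2 went the other way, with replicate 1 the lowest in 4 of 5. The log2 ratio of replicate 1 to the mean of the others was 0.44 to 0.92 for Gclm and 0.23 to 1.5 for Slc7a11, with the largest value of each in DMEM.

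Across all 16 samples, which share the groups and the replicate numbers, levels on the log2(CPM + 1) scale of Nfe2l2 and Slc7a11 correlated at r = 0.97, of Gclc and Gclm at r = 0.95 and of Txnrd1 and Slc7a11 at r = 0.94, whereas Keap1 and Sqstm1 correlated at r = -0.75. The genes most like Slc7a11 among all tested were the copper transporter gene Slc31a1 (r = 0.99), Tmem63b and Pdzd8 (both 0.98). Those most like Nfe2l2 were Trmt5, Zwint and Rab11fip4 (all 0.98). Nqo1 was most like the carbonyl reductase gene Cbr3 (0.92), Cep162 and Tubgcp4 (both 0.91), and Srxn1 was most like Zdhhc18 (0.94), Slc22a4 (0.92) and the heat shock gene Hsph1 (0.91).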

How the data were processed

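RNA of 16 samples in 6 groups was analysed, grouped by condition and replicate number in the labels. The authors trimmed reads with Trimmomatic 0.33, aligned them to GRCm38 with HISAT2 2.1.0 and counted fragments per gene with featureCounts 1.6.2 on Ensembl 100 (reverse-stranded, both ends mapped, mapping quality of at least 10). Fragments of near-identical gene copies can be lost in such counting. The deposited table holds raw counts of 55487 genes, with their positions and exon lengths. Symbols came from GENCODE M 21 and matched 55141 identifiers. RLE scaling, a filter of above 1 CPM in at least 2 samples, and both thresholds follow the study's methods. The main test was the quasi-likelihood test of edgeR 4.0.16 with 1 model of 6 groups, in 8 comparisons. The SE printed with a log2 fold change was worked back from this test. It is the size of the change divided by the square root of the F value. CPM per kb divides by exon length.

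Same-numbered samples deviated together in every comparison with 3 pairs (r = 0.17 to 0.63 across genes, against -0.42 to -0.04 for other numbers), so the model with the replicate number is printed where it changes a call. Deviations were taken from group means, which makes values for other numbers negative where those of the same number are positive. The negative range is therefore not separate evidence of pairing. The pairing comes from the data, as the labels do not say what a number marks.

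The members and lists were chosen with earlier results of these data known. Of the lists, at most the 2 largest called increases and decreases per comparison are named, plus Hmox1. The genes Gsta4, Gpx2 and Sod3 of these lists were too low to test. Likeness is Pearson's r over 16 samples, given for Nfe2l2, Nqo1, Slc7a11 and Srxn1. Alternatives were TMM, total counts, no filter, filterByExpr, the replicate number, only the groups compared, DESeq2 1.42.0, no fold threshold and each sample left out.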

Additional observations from a re-analysis of the deposited data

How the results depend on the processing

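Over the 88 fitted changes of the 10 genes and Hmox1 and their 1254 alternative values, 1151 kept direction and side of the thresholds, 25 lost the call, 41 gained one and 37 changed sign. The causes were not tested. The number of the 10 genes called lower in CM against DMEM was 1 and became 3 with total counts, 2 with no filter, with only the groups compared, with DESeq2 and with no fold threshold, and 0 to 2 with a sample left out. The number called higher in CM + Rux 4 h against CM was 1 and became 0 with TMM, total counts, filterByExpr and only the groups compared, 2 with no filter, and 0 to 1 with a sample left out. In CM + Rux + IKK-16 against CM + Rux 4 h it was 0 and became 1 with no filter. In CM + Rux + IKK-16 against CM it was 5 and became 4 with only the groups compared, 6 with total counts, no filter and DESeq2, and 1 to 6 with a sample left out. The number called lower in CM + Rux 4 h against DMEM + Rux was 0 and became 2 with total counts and 0 to 1 with a sample left out. In the interaction the number called higher was 0 and became 1 with no filter and with DESeq2. Counts over all genes moved too. In CM against DMEM 2980 were called lower, and 4606 with total counts. In CM + Rux 4 h against CM 149 were called higher, 144 with TMM and 269 with no filter. In CM + Rux + IKK-16 against CM it was 817, and 1255 with total counts. In CM + Rux 4 h against DMEM + Rux 3096 were called lower, and 4674 with total counts. In the interaction 29 were called higher, 213 with no filter and 147 with DESeq2.

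With the replicate number as a block, 3 genes were called higher in CM + Rux 4 h against CM and 4 in the interaction, Prdx1 was added in CM + Rux + IKK-16 against CM, Gclm in CM + Rux 4 h against DMEM + Rux and Hmox1 in the interaction. The block called 2.47% of all genes higher in CM + Rux 4 h against CM and 2% in the interaction. It turned the sign of Prdx1 in DMEM + Rux against DMEM (0.09) and changed no other call of the 10 genes or Hmox1.

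Total counts turned the sign in CM + Rux + IKK-16 against CM + Rux 4 h for Nfe2l2 (0.04) and Slc7a11 (0.01), in CM + Rux 4 h against DMEM + Rux for Gclc (-0.05) and Hmox1 (-0.20), and in CM + Rux 2 h against CM + Rux 4 h for Txnrd1 (-0.04). With 1 sample left out, log2 fold changes spanned 0 in CM against DMEM for Gclm (-0.52 to 0.40), Srxn1 (-0.07 to 0.92) and Sqstm1 (-0.29 to 0.19), in CM + Rux 4 h against CM for Keap1 (-0.14 to 0.03), and in CM + Rux + IKK-16 against CM for Txnrd1 (-0.07 to 0.09). In CM + Rux + IKK-16 against CM + Rux 4 h they did so for Nfe2l2 (-0.10 to 0.03), Prdx1 (-0.01 to 0.58), Slc7a11 (-0.22 to 0.11) and Sqstm1 (-0.15 to 0.24). In DMEM + Rux against DMEM they did so for Nfe2l2 (-0.23 to 0.09), Nqo1 (-0.38 to 0.05), Gclc (-0.19 to 0.11), Gclm (-0.59 to 0.33), Txnrd1 (-0.63 to 0.18), Srxn1 (-0.68 to 0.31), Prdx1 (-0.20 to 0.17), Slc7a11 (-1.30 to 0.20) and Sqstm1 (-0.45 to 0.03). Txnrd1 did so in the interaction (-0.02 to 0.79) and in CM + Rux 2 h against CM + Rux 4 h (-0.04 to 0.15). Where DMEM or CM + Rux 2 h was left with 1 sample, that sample was assumed to vary like the other groups. The fits with a sample left out had no term for the replicate number, so samples of that number in the other groups stayed in unmatched. The depth limits Nqo1 most, at 30 to 152 counts per sample.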
